A study of Homo sapiens with 4 samples.

Results

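The genes of 9 factors that resolve or prevent R-loops were examined for A3B binding: RNASEH1, RNASEH2A, RNASEH2B, RNASEH2C, AQR, DHX9, TOP1, TOP3B and XRN2. They form a list of names, and the rule uses no measured value, but both were chosen with earlier results of these data known. The 9 genes belong to the 20033 protein-coding genes that GENCODE version 44 places on chromosomes 1 to 22, X and Y. A peak was counted at a gene when it met the gene body, extended by 3 kb at either end, by at least 1 bp. By this rule 15 of the 56167 A3B peaks of OMM2.3 and 30 of the 136678 A3B peaks of 92.1 lay at the 9 genes.

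OMM2.3 and 92.1 are established uveal melanoma cell lines, cultured here without any treatment or genetic change named in the labels. Chromatin of each line was fixed with formaldehyde, sonicated, and precipitated with antibody to A3B (APOBEC3B), a cytidine deaminase, or with normal rabbit IgG. The 4 samples were thus 1 A3B library and 1 IgG library per line, and only the peak lists of A3B over IgG were analysed here. With 1 library per group there was no replicate check and no test between the lines, and the intervals given cover counting error only.

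An R-loop forms when nascent RNA pairs with its DNA template and leaves the other DNA strand single. A3B deaminates cytosine in single-stranded DNA, preferring a cytosine that follows a thymine, which is why TC and its complement GA are marked in the sequences shown. Cells limit R-loops by degrading the RNA of the hybrid, by unwinding it, by relieving the negative supercoiling behind RNA polymerase, and by clearing RNA through splicing or termination. A peak at one of these genes is a call on the DNA that encodes the factor, not on contact with the factor itself. Whether A3B was bound there depends on the strength of the peak, given below.

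In OMM2.3, 9 of 9 genes carried at least 1 peak, where 50.5% of all protein-coding genes did. In 92.1, 7 of 9 carried a peak against 73.6% of all protein-coding genes, the exceptions being RNASEH1 and RNASEH2C. Peaks of both lines were carried by 7 of 9, where the background was 43.7%. Since longer genes meet more peaks, genes of like length were also counted. Among genes of 10 to 40 kb extended length, 38.2% had an OMM2.3 peak and 65.7% a 92.1 peak, and the 4 members of that length (RNASEH1, RNASEH2A, RNASEH2C and TOP3B) had a peak in 4 and 2 cases. Among genes of 50 to 130 kb, the shares were 67% and 90.4%, and all 5 longer members had a peak in both lines.

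The number of peaks was then set beside a local expectation. This is the number of peaks that the gene would meet if peaks were as dense over it as in the 500 kb on either side, outside assembly gaps. In OMM2.3 the 15 peaks (exact Poisson 95% interval 8.40 to 24.7) stood beside an expectation of 17.2, a ratio of 0.871 (0.488 to 1.44). In 92.1 the 30 peaks (20.2 to 42.8) stood beside 31.0, a ratio of 0.967 (0.652 to 1.38). Over all protein-coding genes the summed ratio was 0.945 and 1.003, and both intervals of the 9 genes held 1 as well as these values. The median ratio of single genes was 1.006 for the members and 0.366 for all protein-coding genes in OMM2.3, and 0.791 and 0.90 in 92.1. The medians of all genes cover the 19550 and 19973 with an expectation above 0. Only 50.5% of protein-coding genes had an OMM2.3 peak, and no median was taken for genes of like length. For all 18 pairs of gene and line, the interval of the count held the local expectation. The intervals took the expectation as exact, though in OMM2.3 it rested on 8 flank peaks at AQR and 14 at RNASEH2B. The share of all protein-coding genes with such an interval was not computed.

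**Figure D1:**
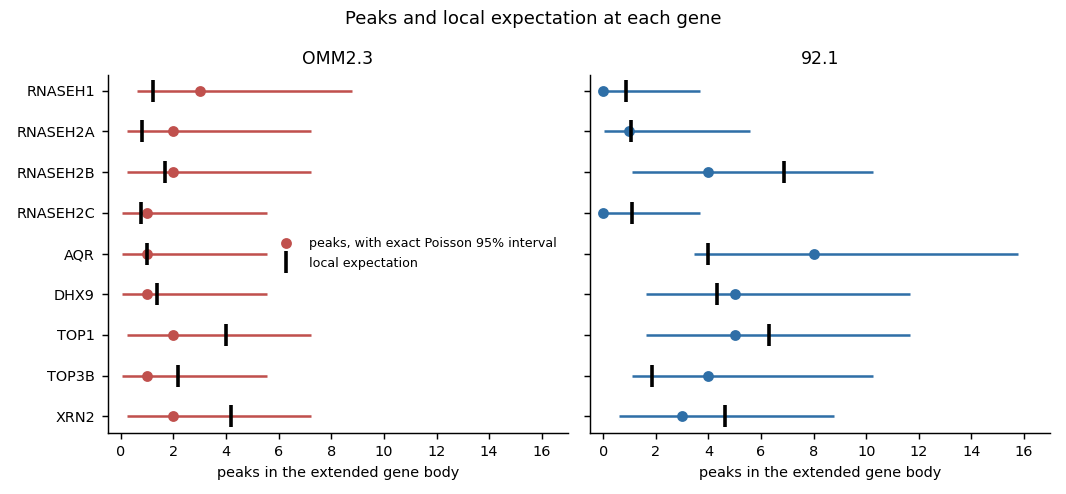
Peaks at each gene by line (points, with exact Poisson 95% intervals as bars) and the local expectation from the flanks (black ticks). In OMM2.3 all counts lie between 1 and 3, in 92.1 between 0 at RNASEH1 and RNASEH2C and 8 at AQR, and every bar reaches its tick.

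The peaks themselves were weak, as were most peaks of both lists. Fold enrichment, the ratio that MACS2 gives of fragments to IgG background at the summit with 1 added to both, ran from 2.07 to 3.13 in OMM2.3 (median 2.64) and from 1.91 to 3.64 in 92.1 (median 2.66). Medians of all peaks were 2.60 and 2.66. The −log10 p of MACS2 ran from 1.56 to 3.47 and from 1.61 to 4.30. None of the 45 peaks had a q of at most 0.05, and only 2 peaks, both of 92.1, had a q below 1. Few peaks of either list did so. On chromosomes 1 to 22, X and Y, 235 of 55486 OMM2.3 peaks had a q of at most 0.05. In 92.1 there were 205 of 135327. A q below 1 was held by 832 of these OMM2.3 peaks and 8002 of those of 92.1.

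Fragment numbers of single peaks were solved from the deposited fold enrichment and p, with A3B fragments scaled by the factor above 0.5 that fitted most peaks, 0.867 in OMM2.3 and 1 in 92.1. Fragments are printed before scaling, and the background is divided by the same factor, so that both stand at the depth of the unscaled A3B library. In OMM2.3 they therefore do not give the fold enrichment directly when 1 is added to both. Fragment numbers were 4 to 9 (median 6) in OMM2.3 and 3 to 6 (median 4) in 92.1, the same medians as for all peaks of each list. The background lay at the lowest level that MACS2 assigns in 5 of 15 and 14 of 30 member peaks, against 35.3% and 39.5% of all peaks. For 3 peaks of 92.1, at RNASEH2A, AQR and DHX9, 2 fragment numbers gave the deposited values and the closer match is printed. Member peaks of OMM2.3 had a median width of 317 bp against 254 bp for all peaks, and those of 92.1 223 bp against 235 bp.

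**Figure D2:**
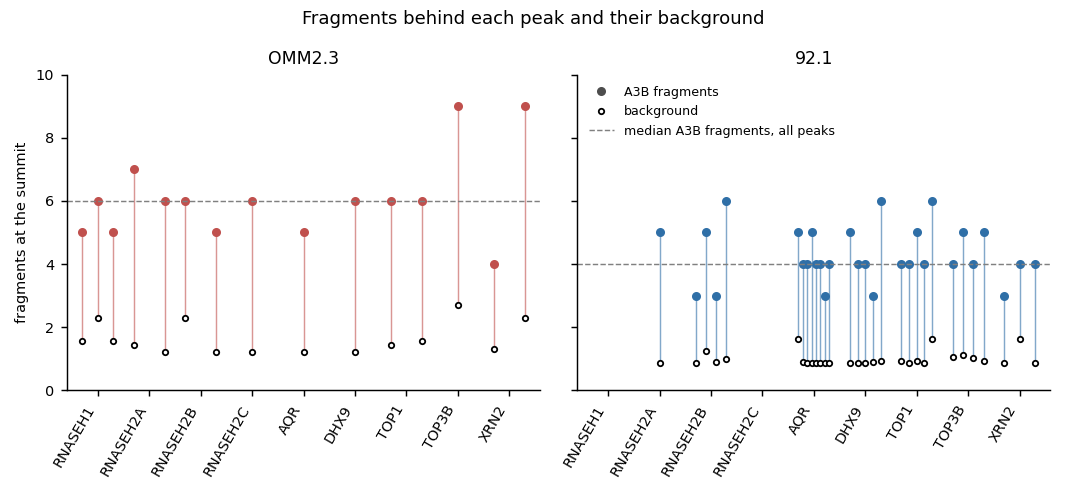
A3B fragments at the summit of each member peak (filled) and the background at the same position (open), by gene, for OMM2.3 and 92.1, with the median of all peaks of the list as a dashed line. OMM2.3 peaks rest on 4 to 9 fragments over 1.21 to 2.70 of background, and those of 92.1 on 3 to 6 over 0.877 to 1.62.

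Ribonucleases come first, as the enzymes that remove the RNA of the hybrid. RNASEH1 degrades RNA paired with DNA in the nucleus and in mitochondria, and its catalytically dead form is a common probe for R-loops. The gene (chr2:3541430-3558333, minus strand) carried 3 OMM2.3 peaks against an expectation of 1.23 (ratio 2.44, interval 0.503 to 7.13) and 0 peaks of 92.1 against 0.882. A count of 0 allows up to 3.69 peaks, so the lines could not be told apart here. The nearest 92.1 peak lay 3.70 kb from the gene body, 0.699 kb outside the window counted.

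The 3 OMM2.3 peaks of RNASEH1 were spread over the gene, in intron 2, intron 6 and the last exon, number 8, which holds the 3′ UTR. They were among the weakest OMM2.3 peaks at the 9 genes. The peaks of exon 8 and intron 2 had 5 fragments over a background of 1.56 and a −log10 p of 1.91, and that of intron 6 had 6 fragments over 2.31 and 1.78. The intron 2 peak lay 528 bp from an internal transcription start site (TSS), and 61.2% of the 32-mers around its summit had further copies in the genome. The other 2 windows held no repeated 32-mer. All 3 peaks also lay in the readthrough gene ENSG00000286905, which runs on the same strand, so they cannot be assigned to RNASEH1 alone.

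RNASEH2A encodes the catalytic subunit of RNase H2, which cleaves hybrids and also removes single ribonucleotides from DNA. This gene (chr19:12806584-12813640, plus strand) carried 2 OMM2.3 peaks against 0.815 (ratio 2.45, 0.297 to 8.87) and 1 peak of 92.1 against 1.05 (0.949, 0.0240 to 5.29). The OMM2.3 peaks were the first and a joint second in −log10 p of that line at the 9 genes. The stronger had 7 fragments over 1.45 (−log10 p 3.47) with its summit 1.69 kb upstream of the 5′ end. The weaker began 113 bp inside the gene, covered an exon with coding sequence and a TSS, and had 6 fragments over 1.21 (3.11). The 92.1 peak had its summit 7.40 kb from the 5′ end, just past the 3′ end of the gene, with 5 fragments over 0.885 (3.50).

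Both outer RNASEH2A peaks lay in largely repeated sequence. In the upstream window 81.2% of 32-mers occurred elsewhere, with a median of 2484.5 copies, and in the downstream window 73.5% did. The same 3 peaks also met HOOK2, and the 2 of OMM2.3 met THSD8.

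RNASEH2B and RNASEH2C are the accessory subunits that hold the RNase H2 complex together. RNASEH2B (chr13:50909747-51024120, plus strand) carried 2 OMM2.3 peaks against 1.69 (1.18, 0.143 to 4.28) and 4 peaks of 92.1 against 6.88 (0.582, 0.158 to 1.49). Both OMM2.3 peaks lay beyond the last exon of the canonical transcript, which ends 47.0 kb from the 5′ end. Their summits were at 67.8 and 91.8 kb, within longer annotated transcripts, and the stronger had 5 fragments over 1.21 (−log10 p 2.34).

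In 92.1, 3 of the 4 RNASEH2B peaks lay at the front of the gene, with summits 1.42, 14.0 and 19.2 kb from the 5′ end. The first lay 686 bp from a TSS and the last of these 317 bp from another, each with 3 fragments. The fourth, at 96.6 kb, was the second strongest of the 45 peaks, with 6 fragments over 1.01, a −log10 p of 4.05 and a q of 0.835. It also met the pseudogene GUCY1B2 and lay 4.66 kb from the nearest OMM2.3 peak, and its window held no repeated 32-mer. Its summit window is shown as that of the strongest peak of the ribonuclease genes, at chr13:51006307-51006407 of GRCh38, read along the coding strand with TC and GA in capitals.
RNASEH2B 92.1 peak 4: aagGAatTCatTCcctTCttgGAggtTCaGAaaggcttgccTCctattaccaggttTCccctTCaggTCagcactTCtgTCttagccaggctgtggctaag
The window held 13 TC or GA, where its composition would give 12.7.

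RNASEH2C (chr11:65714005-65720818, minus strand) carried 1 OMM2.3 peak against 0.774 (1.29, 0.0327 to 7.20) and 0 peaks of 92.1 against 1.09. The OMM2.3 peak lay in exon 4 of 4, over the 3′ UTR and 53 bp from an annotated TSS, with 6 fragments over 1.21 (−log10 p 3.11), and it also met KAT5. The nearest 92.1 peak was 3.35 kb from the gene body, 0.349 kb outside the window. RNASEH1 and RNASEH2C were thus the 2 members with a peak in OMM2.3 and none in 92.1. That pattern held for 6.72% of all protein-coding genes, and for 9.57% of those of 10 to 40 kb, the length of both. It was gone with an extension of 10 kb, which gave 3 peaks in each line at RNASEH1 and 2 in each line at RNASEH2C. At a −log10 p of at least 2, RNASEH1 had 0 peaks in either line and RNASEH2C still had 1 OMM2.3 peak and 0 of 92.1.

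**Figure D3:**
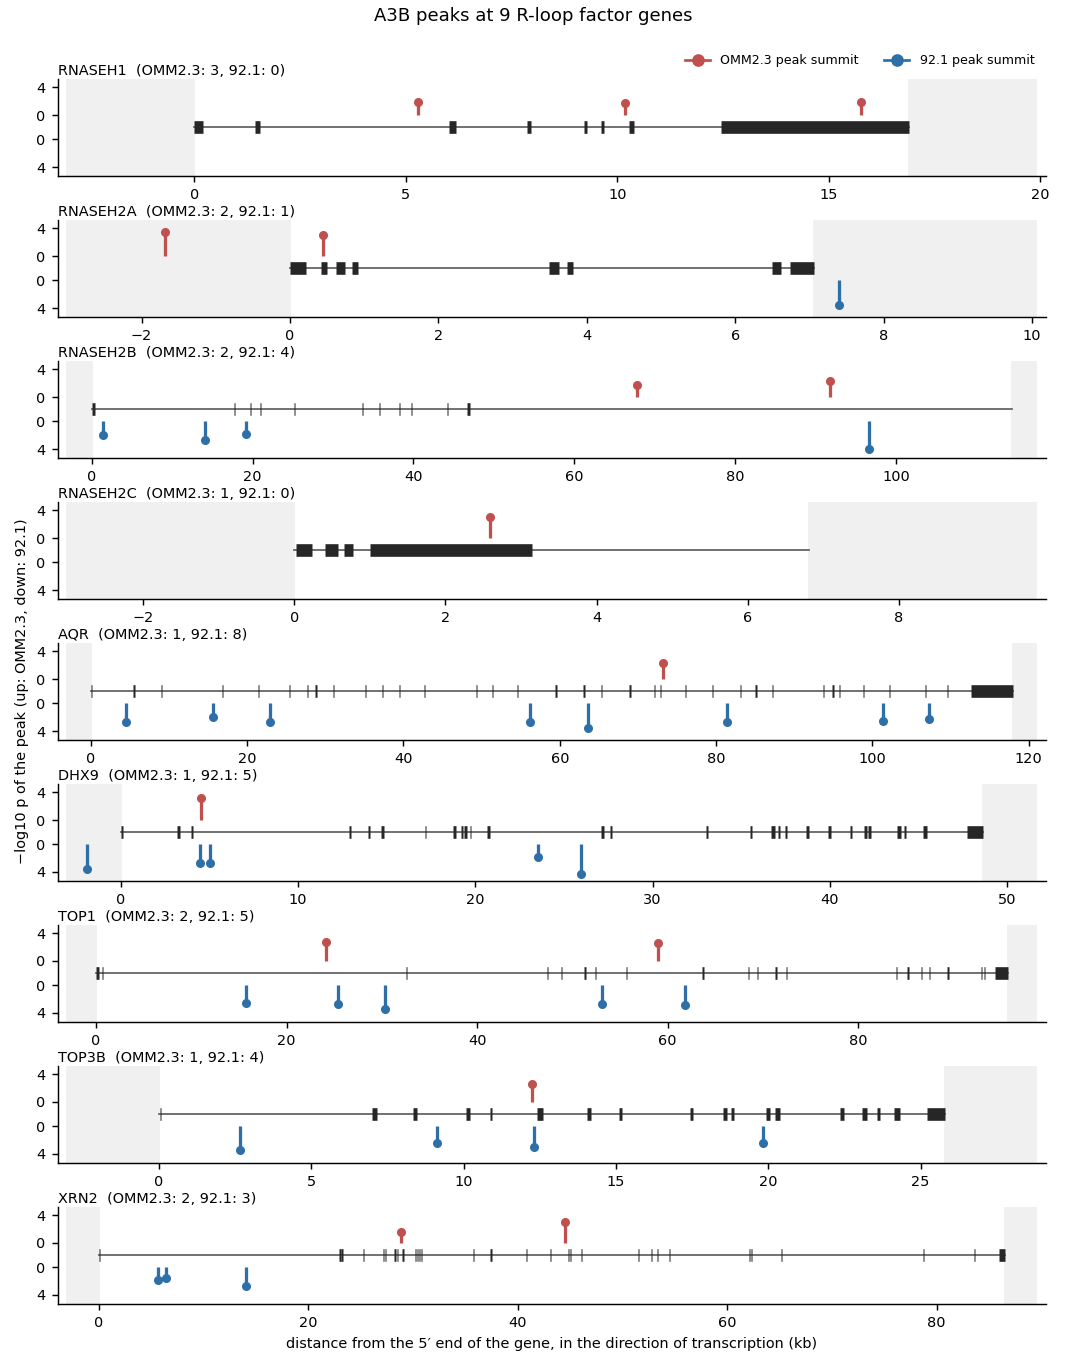
The 9 genes drawn from their 5′ end (x axis, kb in the direction of transcription), with canonical exons as black boxes, the 3 kb extensions shaded, and peak summits of OMM2.3 upward and 92.1 downward at a height that gives their −log10 p. RNASEH1 and RNASEH2C have no 92.1 summit, the 8 summits of AQR in 92.1 run the length of the gene, and the summits of both lines fall together at DHX9 and TOP3B.

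Helicases and helicase-like factors follow. AQR (Aquarius) is a helicase-like factor that binds introns within the spliceosome. The gene (chr15:34851782-34969742, minus strand) carried 1 OMM2.3 peak against 0.994 and 8 peaks of 92.1 against 3.98. This was the highest count of the 9 genes, with a ratio of 2.01 (0.869 to 3.97). The OMM2.3 peak lay in intron 22, with 5 fragments over 1.21 (−log10 p 2.34), 7.85 kb from the nearest peak of 92.1.

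All 8 AQR peaks of 92.1 had their summits in introns, from the 5′ end in introns 1, 3, 5, 16, 18, 24, 31 and 33. Their summits ran from 4.47 to 107 kb, so they did not gather at either end. They rested on 3 to 5 fragments, with a −log10 p of 1.91 to 3.52. The peaks of introns 1 and 33 lay within 1 kb of a TSS, at 662 and 541 bp. The intron 5 window was the most repetitive of the 45, with 87.6% of 32-mers repeated, and the strongest peak, in intron 18, had 29.4%.

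DHX9 (RNA helicase A) unwinds RNA and RNA-DNA hybrids. The gene (chr1:182839347-182887982, plus strand) carried 1 OMM2.3 peak against 1.37 (0.729, 0.0184 to 4.06) and 5 peaks of 92.1 against 4.34 (1.15, 0.374 to 2.69). The OMM2.3 peak lay in intron 3 with 6 fragments over 1.21 (−log10 p 3.11), and met a 92.1 peak of 4 fragments over 0.877 (2.68). Another 92.1 peak with the same values lay 0.272 kb beyond the OMM2.3 peak. The strongest of the 45 peaks lay in intron 12 in 92.1, with 6 fragments over 0.921, a fold enrichment of 3.64, a −log10 p of 4.30 and a q of 0.835. The nearest OMM2.3 peak lay 21.1 kb from it. The remaining peaks of 92.1 lay 1.91 kb upstream of the gene, in 82.9% repeated sequence over DHX9-AS1, and in intron 12 with 3 fragments.

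The stretch that both lines share in intron 3 is 126 bp long. The window of the strongest peak is shown, at chr1:182865250-182865350, on the coding strand.
DHX9 92.1 intron 12: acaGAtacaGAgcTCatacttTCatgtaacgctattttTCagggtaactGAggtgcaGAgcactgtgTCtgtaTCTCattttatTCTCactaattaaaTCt
The window had a GC content of 36.6% and 13 TC or GA, where its composition would give 11.7.

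Topoisomerases prevent R-loops by relaxing the negatively supercoiled DNA in which RNA invades. TOP1, the main enzyme doing so behind RNA polymerase, is also the target of camptothecin. The gene (chr20:41028822-41124487, plus strand) carried 2 OMM2.3 peaks against 3.98 (0.503, 0.0609 to 1.82) and 5 peaks of 92.1 against 6.32 (0.791, 0.257 to 1.85). All 7 were intronic, and none lay within 3 kb of a TSS of the gene. In OMM2.3 they lay in introns 2 and 8 with 6 fragments each, over 1.43 (−log10 p 2.76) and 1.56 (2.57). In 92.1 they lay in introns 2, 7 and 8 with 4 to 6 fragments, the strongest in intron 2 with 5 over 0.921 (3.41). Peaks of the lines came close without meeting, 1.13 kb apart in intron 2 and 2.34 kb apart in intron 8.

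TOP3B acts on both DNA and RNA, together with its partner TDRD3. The gene (chr22:21957025-21982813, minus strand) carried 1 OMM2.3 peak against 2.18 (0.458, 0.0116 to 2.55) and 4 peaks of 92.1 against 1.86 (2.15, 0.586 to 5.50). The OMM2.3 peak lay in intron 5, 757 bp from a TSS, with 9 fragments over 2.70 (−log10 p 2.54). It met a 92.1 peak of 5 fragments over 1.12 (2.98) that also reached coding sequence. The strongest 92.1 peak lay in intron 1, 2.65 kb from the 5′ end, with 5 fragments over 0.939 (3.37). A further peak covered an internal TSS next to intron 11 with 4 fragments over 1.05 (2.35), and the last, in intron 3, had 4 over 1.03 (2.38). All but the intron 1 peak also met PPM1F-AS1 on the other strand.

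The shared TOP3B stretch is shown because the lines overlapped at only 2 places in the 9 genes, here and in DHX9. It runs over 136 bp at chr22:21970501-21970636 and is read along the coding strand.
TOP3B shared stretch: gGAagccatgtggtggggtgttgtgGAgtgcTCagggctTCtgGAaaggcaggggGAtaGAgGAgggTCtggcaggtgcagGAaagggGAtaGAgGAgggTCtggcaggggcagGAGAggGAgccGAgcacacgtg
Its GC content was 63.2%, with 18 TC or GA against 17.5 from composition and an excess of G over C of 0.581 of their sum on the coding strand. Of the 15 OMM2.3 member peaks, 2 met a 92.1 peak, where 3.62% of all OMM2.3 peaks did.

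XRN2 degrades RNA from its 5′ end and releases RNA polymerase after cleavage at the end of genes. This gene (chr20:21303331-21389825, plus strand) carried 2 OMM2.3 peaks against 4.18 (0.479, 0.0580 to 1.73) and 3 peaks of 92.1 against 4.64 (0.647, 0.133 to 1.89). Their positions did not mix. The 92.1 peaks all lay in intron 1, with summits 5.66, 6.40 and 14.1 kb from the 5′ end, and those of OMM2.3 lay in introns 8 and 17, at 28.8 and 44.5 kb. The intron 17 peak had 9 fragments over 2.31 (−log10 p 2.96), which with TOP3B was the highest number of fragments at the 9 genes. The intron 8 peak, which reached coding sequence, was the weakest of OMM2.3 with 4 fragments over 1.30 (1.56). The strongest of 92.1 had 4 over 0.877 (2.68), and no window at XRN2 held a repeated 32-mer.

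The positions of the member peaks were set beside those of the peaks at all protein-coding genes, 30113 pairs of gene and peak in OMM2.3 and 75132 in 92.1. Within 3 kb of a TSS of the gene lay 5 of 15 OMM2.3 peaks (33.3%, Wilson 95% interval 15.2 to 58.3) and 10 of 30 peaks of 92.1 (33.3%, 19.2 to 51.2), against 25.8% and 25.5% at all genes. Within 1 kb there were 4 (26.7%, 10.9 to 52.0) and 6 (20%, 9.51 to 37.3), against 11.4% and 11.9%. Counted from the 5′ end of the gene only, the share within 3 kb was 20% in OMM2.3 and 10.0% in 92.1. The share at all genes was not computed for the 5′ end alone, so these 2 values have no background here. For any TSS of the gene, the intervals at 3 kb and at 1 kb held the shares of all genes. These shares depend on how many start sites a gene has annotated, from 1 at XRN2 to 42 at RNASEH2B. None of the 11 RefSeq promoter windows of the 9 genes, each 0.3 kb long, held a peak of either line, where 1.1% of 35116 such windows held an OMM2.3 peak and 4.14% a 92.1 peak. Exons of any transcript of the gene were met by 4 peaks in each line, where 13.7% and 13.3% of peaks at all genes did so. Coding sequence was met by 2 in each (8.26% and 7.06% at all genes) and UTRs by 2 and 3 (7.09% and 7.65%). Another annotated gene was met by 8 of 15 and 6 of 30 peaks, against 21.6% and 21.5%. The OMM2.3 share thus lay above that of all genes. No interval was computed for the exon, coding sequence, UTR and other-gene counts.

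Only 3 member peaks were counted through the 3 kb extension. They lay 1.65 kb upstream of RNASEH2A in OMM2.3, and 0.296 kb downstream of RNASEH2A and 1.84 kb upstream of DHX9 in 92.1. The nearest peaks left out lay from 0.294 kb beyond the window, at TOP1 in 92.1, to 170 kb beyond it, at AQR in OMM2.3.

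Base composition was set beside that of each whole list. Around the summits, mean GC content was 47.1% (SD 9.06 over 15 windows) against 46.2% for all OMM2.3 peaks, and 44.1% (SD 12 over 30) against 42.3% for all 92.1 peaks. Mean counts of TC and GA were 24.1 against 24.8 in OMM2.3 and 22.4 against 24.2 in 92.1. Relative to base composition these were 0.981 against 1.02 and 0.948 against 1.02. Windows in which at least 50% of 32-mers were repeated numbered 2 of 15 and 3 of 30, and 10 and 16 held no repeated 32-mer. Repeated 32-mers were counted at the member peaks only, so these numbers have no share of the whole lists beside them.

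The surroundings of the genes differed widely in peak density. In OMM2.3 the flanks held from 8 peaks per Mb at AQR and 14 at RNASEH2B to 68 at TOP3B, against 18.9 over the genome. Chromosomes 15 and 13, on which AQR and RNASEH2B lie, had 11.2 and 12 peaks per Mb. In 92.1 they held from 32 at AQR to 83 at RNASEH2C, against 46.1. At RNASEH2C the OMM2.3 flanks had 59 peaks per Mb, where all of chromosome 11 had 13.1. The 9 extended genes held 26.1 and 52.3 peaks per Mb. The ratio of 92.1 to OMM2.3 was 2 at the genes, 1.45 in their flanks and 2.44 over all peaks, and in the flanks it ranged from 0.717 at RNASEH1 to 4.07 at RNASEH2B.

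**Figure D4:**
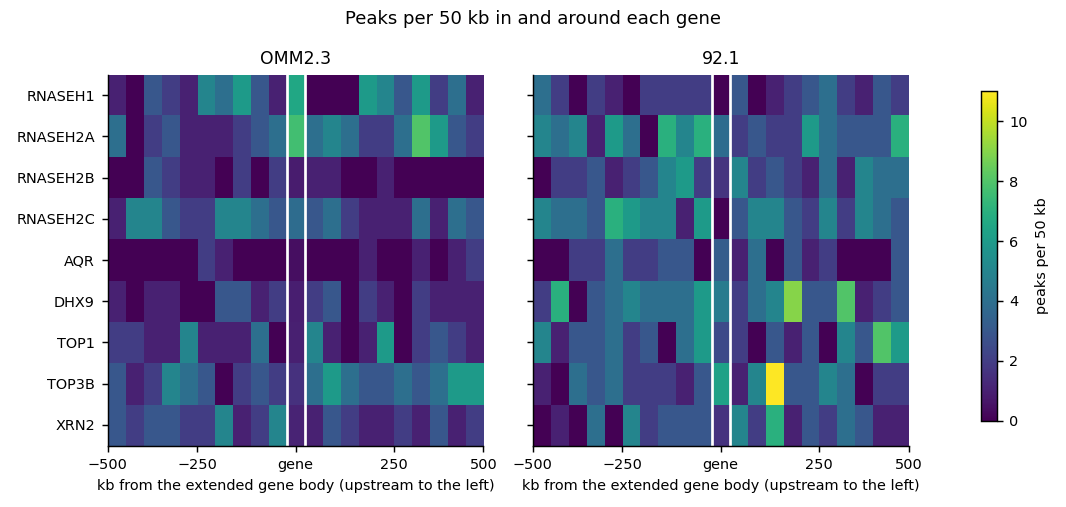
Peaks per 50 kb in the 500 kb upstream (left) and downstream (right) of each extended gene and over the gene itself (between white lines, scaled to 50 kb), for OMM2.3 and 92.1. The OMM2.3 flanks of AQR and RNASEH2B hold the fewest peaks, 8 and 14, and the densest bin, with 11 peaks of 92.1, lies downstream of TOP3B.

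A list of 30 other genes tied to R-loops was counted by the same rule. In OMM2.3, 14 of them had a peak (46.7%, 30.2 to 63.9) and in 92.1 24 did (80.0%, 62.7 to 90.5), beside 50.5% and 73.6% of all protein-coding genes. Their 33 OMM2.3 peaks stood beside an expectation of 37.1 (0.889, 0.612 to 1.25) and their 105 peaks of 92.1 beside 99.5 (1.06, 0.864 to 1.28). No q reached 0.05 in either line. As for the 9 genes, both intervals held 1.

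By role, the 12 helicases had 8 OMM2.3 peaks against 8.49 and 53 of 92.1 against 40.7 (1.30, 0.975 to 1.70). The 10 genes of mRNA packaging, export and splicing had 11 against 10.1 and 22 against 21.9. TDRD3 had 3 against 2.39 and 6 against 9.74. The 3 exosome genes had 2 against 1.58 and 3 against 8.08 (0.371, 0.0765 to 1.08), and the 4 chromatin and other genes 9 against 14.6 and 21 against 19.1. Each of these ratios had an interval that held 1.

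Of genes with an expectation of at least 1, the highest ratios in OMM2.3 were 1.81 at EXOSC10, a nuclear exosome nuclease, 1.61 at RECQL5, a RecQ helicase, and 1.57 at THOC7, a subunit of the THO mRNA export complex. In 92.1 they were 2.23 at SIN3A, a corepressor scaffold, 1.96 at DHX36, a helicase of G-quadruplexes, and 1.84 at SAMHD1, a dNTP hydrolase. These 6 counts, 2 to 9 peaks each, all had intervals that held the expectation. No peak of either line lay at DDX39B, PIF1, SRSF1, SRSF2 or PRMT5, where expectations were 0.0369 to 0.981.

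**Figure D5:**
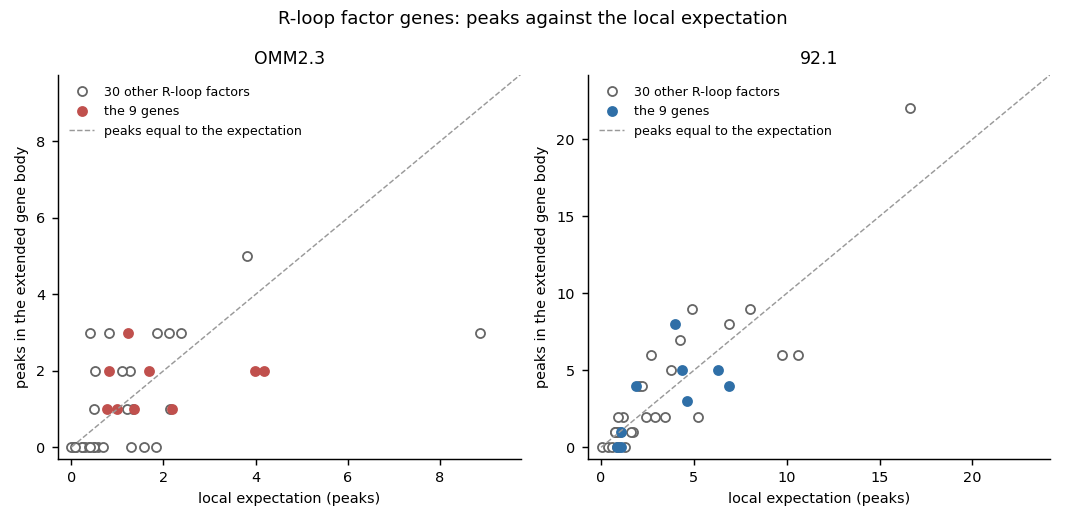
Peaks at each gene (y axis) against its local expectation (x axis) for the 9 genes (filled) and the 30 other R-loop factors (open), with a dashed line where both are equal. Points of both sets lie on either side of the line, with AQR at 8 peaks for 3.98 expected in 92.1.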

How the data were processed

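A3B and IgG chromatin from 2 lines was sequenced by ChIP-seq. The authors aligned paired reads to GRCh38 with Bowtie2 2.2.5 after FastQC 0.11.9, used Sambamba against duplicates and took peaks from MACS2 2.2.7.1 at a p of 0.05, A3B over IgG, per line. ChIPseeker and deepTools 3.5.1 are also named in the submitters' processing notes. Further filters are not given in the sources used here. The deposited score is the integer part of 10 times the −log10 p. The deposited ratio is fold enrichment over the IgG background with 1 added to both. The next deposited columns are the −log10 p and, after it, the −log10 q-value of each summit. The other columns used, deposited by the authors, are start, end and summit in bp.

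Peaks were intersected with GENCODE version 44. Local expectations were computed over flanking peaks as gene length plus peak width over flank length, without random placement. Fragment numbers were solved from fold enrichment and p within 0.002 of the deposited −log10 p, at a scaling of 0.867 (OMM2.3) or 1 (92.1), sought above 0.5 only. Intervals are exact Poisson for counts and Wilson for shares, at 95%, and no test was run. Promoter windows are from RefSeq on GRCh38, with 11 windows for 9 genes because RNASEH2B and XRN2 have 2 each. Named peaks were the strongest of each gene and line, those within 1 kb of a TSS and those shared. Sequences lying in UTRs were not printed, and some other peak sequences are not reported here. The counting was tested on simulated peaks. Of the other factors, the 3 highest ratios per line and those with 0 peaks were named. Alternatives covered thresholds, extension, flanks, TSS choice and overlap. Members, lists and rules were chosen with earlier results of these data known. Python 3.11.15, numpy 2.4.6, pandas 2.3.3, scipy 1.17.1, pysam 0.24.0 and matplotlib 3.10.9 were used.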

Additional observations from a re-analysis of the deposited data

Results flagged for a closer look

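In 6 of the 9 genes the ratio of peaks to the local expectation lay on opposite sides of 1 in the lines. The share of all protein-coding genes that did so was not computed, so this count has no background here. It was 0 in 92.1 and 2.44 in OMM2.3 at RNASEH1, 0.949 and 2.45 at RNASEH2A, 0.582 and 1.18 at RNASEH2B, and 0 and 1.29 at RNASEH2C. The order was turned at DHX9, with 1.15 in 92.1 and 0.729 in OMM2.3, and at TOP3B, with 2.15 and 0.458. In each of the 6 genes the intervals of both ratios held 1. This contrast of the lines was not tested, since each line had 1 A3B library.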

How the results depend on the processing

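No paired analysis was possible because no result came from a test and the groups had 1 library apiece. Over the 9 genes together, 29 of 36 alternatives left the value within the range set for it and 7 moved it. That range was a factor of 1.5 or the interval of the main value, which was wide. Reversal could not be judged. The intervals of both main ratios held 1 (0.488 to 1.44 in OMM2.3, 0.652 to 1.38 in 92.1), and counts and shares have no direction to reverse. At a p of at most 1e-05, and likewise at a q of at most 0.05, the peaks at the 9 genes fell to 0 in OMM2.3 and to 0 in 92.1, and at that q the other R-loop factors with a peak fell to 0 in both lines. These thresholds keep few peaks of either list. With distance taken only from the 5′ end of each gene, the promoter share was 20% in OMM2.3 and 10.0% in 92.1, in place of 33.3% in both, since in 92.1 most promoter peaks lay at internal start sites. A −log10 p of at least 2 kept 10 of 15 and 24 of 30 peaks, and the share of each whole list at that threshold was not computed. Across the choices of flank, extension and threshold the summed ratio of OMM2.3 ran from 0.794 to 0.967, and that of 92.1 from 0.863 to 1.09. It passed 1 in 92.1 with the rest of the chromosome as flank (1.09) and without extension (1.02). Counts of single genes moved under 45 of 108 alternatives, among them the 0 of 92.1 at RNASEH1 and RNASEH2C, which became 3 and 2 with an extension of 10 kb. Most peaks at the genes rest on 3 to 6 fragments, and a count of 0 allows up to 3.69 peaks.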

Other observations

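Among the 60 pairs of other R-loop factor and line, the interval of the count left out the local expectation in 2, chosen here after their values were seen. DDX23, a helicase of the spliceosome, had 3 OMM2.3 peaks (0.619 to 8.77) beside an expectation of 0.411. SMARCA4, the ATPase of the BAF chromatin remodelling complex, had 3 OMM2.3 peaks (0.619 to 8.77) beside 8.86. In 92.1 the same genes had 2 peaks beside 2.44 and 6 beside 10.6, within their intervals. WRN, a RecQ helicase with exonuclease activity, had the highest count of the list, 22 peaks of 92.1 beside 16.7, and 1 OMM2.3 peak beside 1.34.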
